A study of Drosophila melanogaster with 10 samples.

Results

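The genes described here are 10 genes of ecdysteroid synthesis in Drosophila melanogaster, chosen by name and measured by 11 of the 18769 probe sets tested. The choice was made with earlier results of these data known. They are the Halloween P450 genes spo, spok, dib, sad and shd, the oxygenase gene nvd, the P450 gene Cyp6t3, the glutathione transferase gene GstE14, the sterol transporter gene Npc1a and the zinc finger gene ouib. All 10 were found on the array by their annotated symbol, 9 of them with 1 probe set and shd with 2.

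Steroid hormone in the fly larva is made from dietary sterol in the prothoracic gland, a part of the ring gland that sits on the brain. The gland releases ecdysone, which other tissues such as fat body and midgut turn into 20-hydroxyecdysone, the hormone that drives moults and metamorphosis. Most of the enzymes are known as markers of the gland itself, whereas shd acts in the peripheral tissues.

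RNA was profiled on 1-colour Affymetrix arrays in 5 groups of 2 arrays. The larval groups were animals of the third instar, with 20 larvae ground up for each sample: controls with wild type as their genotype, larvae of the Jarid2 line, and larvae whose titles name E(z) RNAi. For the disc groups, eye-antenna imaginal discs were taken from larvae late in the third instar of wild type controls and of the Jarid2 line. About 500 discs were dissociated for a sample, and the cells were sorted by GFP fluorescence. The Jarid2 line carries the insertion Jarid2MB00996 over the balancer TM3, so it is a single allele, and the sources used here do not say whether the animals taken were heterozygous. The RNAi animals are described by the transgene UAS-E(z)-RNAi with no driver named, and their genotype field reads wild type. Flies were raised at 25 °C. Jarid2 encodes a partner of Polycomb repressive complex 2 and E(z) its histone methyltransferase, and the series title asks which functions of Jarid2 depend on that complex.

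Values are log2 expression as deposited, and the 2 arrays of a group are given in the order of their replicate numbers. Differences are given ± standard error (n = 2 arrays per group). Adjusted p-values were taken from 1 limma fit over all 18769 probe sets, with 0.05 as the threshold of a call. The labels do not say that the 2 samples of a group came from separate animals or dissections, so these p-values measure only the spread between the arrays. The lower quartile of an array, 5.09 to 5.30 in larval arrays and 4.20 to 4.27 in disc arrays, served as a mark of dim signal. Levels were compared between arrays, for 1 probe set or for the summed linear levels of 1 marker list, and never between genes.

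The libraries were checked against their labels. Jarid2 itself fell at least 21.8-fold in mutant larvae, where both arrays lay below their lower quartile, and 7.47-fold in mutant discs, where neither did. E(z) read 0.99 higher in the larvae labelled E(z) RNAi (adjusted p = 0.0139), against that label, a call kept in 16 of 22 alternatives. It was lost when only larval arrays were fitted (adjusted p = 0.0780), in a fit of the compared groups alone (0.221) and with array weights (0.0611). The same held at a minimum of 2-fold, and without the second control larval array (0.87) or the second array of that label (0.83). Of 11 measured eye disc markers 0 lay below the lower quartile in any disc array, and their summed linear level was 26463 to 38452 in discs and 2269 to 2816 in larvae. Of 6 fat body markers the sum was at least 113667 in every larval array and at most 258.02 in every disc array.

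Whole larvae, which contain the ring gland, and disc cells gave separate levels for most of the 10 genes. For 6 genes, nvd, GstE14, spok, Cyp6t3, sad and shd, each of the 6 larval arrays lay above each of the 4 disc arrays, an order that 43.5% of all probe sets showed. The P450 gene shd, which makes the active hormone in peripheral tissue, ranged from 10.64 to 11.00 in larvae with a median of 10.84, and from 5.01 to 5.60 in discs. These are levels of separate tissues whose array medians also differ, so no test was made of them.

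**Figure D1:**
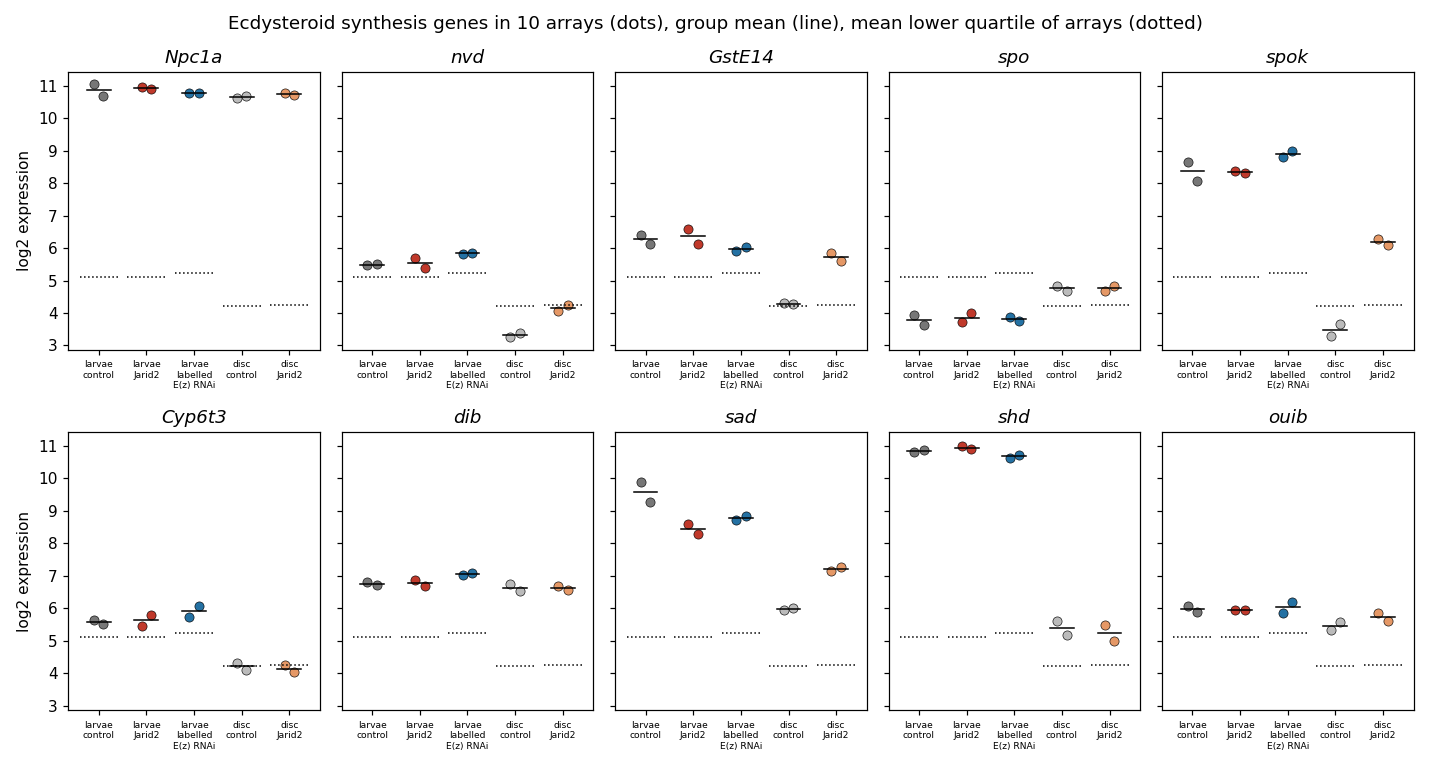
Log2 expression of the 10 genes, with 1 panel per gene, in the 5 groups on the horizontal axis. Dots are arrays, solid lines are group means and dotted lines the mean lower quartile of the arrays of the group. spok, GstE14, nvd and sad stand higher in Jarid2 mutant disc cells than in control disc cells, and sad stands lower in both other larval groups than in control larvae.

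In Jarid2 mutant disc cells 4 of the 10 genes rose and 0 fell, where 0.517% of all probe sets were called higher, 2.09% lower and 2.61% in either direction. The 4 were spok, GstE14, sad and nvd. The 10 genes were chosen with earlier results of these data known, so these shares are no test of the set. Both arrays of the mutant lay above both of the control for 6 of the 10, an order that 37.1% of all probe sets showed. The median difference of the 10 genes was 0.19, against 0.06 over all probe sets.

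The gene spok encodes the larval P450 of the so-called black box, the unresolved steps that follow the first oxidation of cholesterol. It read 3.29 and 3.66 in control disc cells and 6.29 and 6.08 in mutant disc cells. Both control arrays lay below their lower quartile and both mutant arrays well above it, with a gap between the groups of more than 2 log2 units. The difference was 2.71 ± 0.21 (adjusted p = 0.000297), and because the controls were dim, the rise is given as at least 3.93-fold, the mutant mean over the mean lower quartile of the control arrays. Even so, the mutant disc arrays stayed below every larval array, where spok ran from 8.08 to 8.99.

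GstE14, known as noppera-bo, encodes a glutathione transferase that the gland needs to handle cholesterol. It read 4.30 and 4.27 in control disc cells and 5.83 and 5.59 in mutant disc cells, just above the lower quartile in the controls and clearly above it in the mutants. The groups did not overlap, and the rise was 1.43 ± 0.18, or 2.69-fold (adjusted p = 0.00512). Without the first mutant disc array it was 1.31 and missed the threshold (adjusted p = 0.0510).

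The gene sad encodes a mitochondrial P450 of a late hydroxylation of the steroid. Its levels were 5.96 and 6.01 in control disc cells and 7.14 and 7.26 in mutant disc cells, all above the lower quartile and with little spread within each group. The rise was 1.21 ± 0.20, or 2.32-fold (adjusted p = 0.0186). It did not pass the test when any 1 of the 4 disc arrays was left out, with values from 1.15 to 1.28: adjusted p was 0.104 without the first control and 0.122 without the second, and 0.0878 without the first mutant and 0.153 without the second. After quantile normalization of all arrays it was 0.90 (adjusted p = 0.154), while in a fit of the disc arrays alone it kept its call.

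The gene nvd encodes the oxygenase that takes the first step, from cholesterol to 7-dehydrocholesterol. It read 3.26 and 3.38 in control disc cells and 4.07 and 4.24 in mutant disc cells, all 4 below the lower quartile of their arrays. The mutant arrays were higher by 0.84 ± 0.13 on the log2 scale (adjusted p = 0.0122), and no fold is given for a signal this dim in both groups. The call was lost without the first control array (0.78, adjusted p = 0.0902), the second control array (0.90, adjusted p = 0.0666) or the second mutant array (0.76, adjusted p = 0.117).

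The other 6 genes did not pass the test in discs, with differences from -0.13 to 0.28 and intervals that together spanned -0.57 to 0.65. Cyp6t3, a P450 assigned to the black box, read 4.32 and 4.11 in controls, against 4.24 and 4.04 in mutants, around the lower quartile. The mitochondrial P450 gene dib, which acts just before sad, was at 6.74 and 6.52 in controls and at 6.68 and 6.58 in mutants, a difference of 0.00 with an interval from -0.28 to 0.28. ouib, a regulator of spok in the gland, had levels of 5.35 and 5.57 in controls against 5.86 and 5.62 in mutants, without overlap but with adjusted p = 0.520.

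The remaining sterol and hormone genes gave level readings in discs. Npc1a, which moves sterol out of late endosomes, lay between 10.61 and 10.77 in all 4 disc arrays. spo, the paralog of spok that is used in the embryo and ovary, lay between 4.69 and 4.83 and differed by 0.00 with an interval from -0.34 to 0.34. The suffix of its probe set marks probes that can match more than 1 transcript, and its values did not follow those of spok. Of the shd probe sets, the brighter gave a difference of -0.13 ± 0.19 and the other 0.07 ± 0.13.

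**Figure D2:**
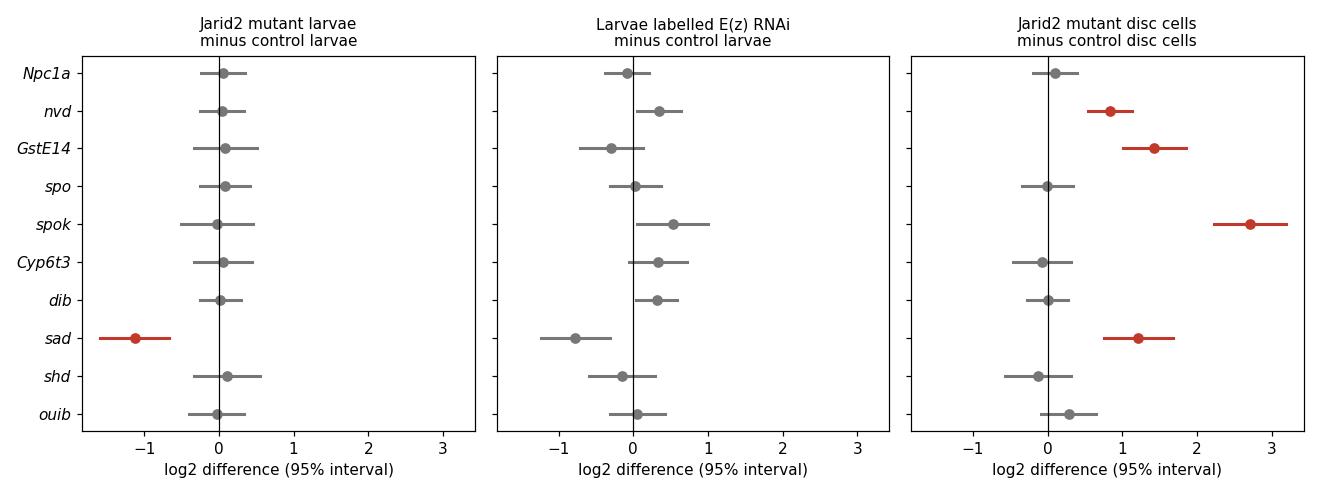
Log2 differences of the 10 genes in the 3 comparisons with controls. Points are limma estimates, bars are 95% intervals and red marks an adjusted p under 0.05. In discs spok (2.71), GstE14 (1.43), sad (1.21) and nvd (0.84) were called, in Jarid2 mutant larvae only sad (-1.13), and in the larvae labelled E(z) RNAi none.

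Markers of other cells also moved between the disc groups. Of 12 haemocyte markers 9 fell and 0 rose, where 2.09% of all probe sets were called lower and 0.517% higher. Their summed linear level was 22562 to 48321 in control disc arrays and 3138 to 3434 in mutant ones. Of 11 eye disc markers 2 rose, so and ato, calls lost without the second mutant disc array (0.77, adjusted p = 0.0570, and 0.68, adjusted p = 0.162) and for ato also without either control, with sums of 26463 to 27069.6 in controls and 35998 to 38452 in mutants. For 10 of the 11 eye disc markers both mutant arrays lay above both controls, an order that 37.1% of all probe sets showed. By limma 9 of the 11 had an unadjusted p under 0.05, against 13.8% of all probe sets. Their median difference was 0.50, against 0.06 over all probe sets. No marker has a value of 0 on this scale. In a bulk sample fewer cells of a type and less RNA per cell cannot be told apart, and the part of these cells in the rise of the 4 genes was not tested.

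The ring gland also holds the corpora allata and the corpora cardiaca, so their markers were read in the same arrays. The juvenile hormone enzyme gene jhamt, of the corpora allata, read 5.17 and 8.74 in control disc arrays and 4.46 and 4.68 in mutant ones. The second control array alone was high, in the group where spok was low. The hormone gene Akh, of the corpora cardiaca, read 5.71 and 5.78 in controls against 5.81 and 5.90 in mutants, against at least 8.82 in every larval array. The 4 markers of these ring gland cells summed to between 2956 and 3345 in controls and between 3040.4 and 3267 in mutants. Such a sum weighs the brightest marker most. The differences of the 4 ran from -2.39 to 0.14, with a median of -0.43 against 0.06 over all probe sets. Of the 4, 2 had a positive difference, as had 64.8% of all probe sets. By limma 0 of the 4 were called, and 2 had an unadjusted p under 0.05, as 13.8% of all probe sets did.

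The gene sro, another Halloween gene of the gland, was measured as well and did not follow spok. It read 8.11 and 8.02 in control disc cells and 7.77 and 7.75 in mutant disc cells, so the mutants stood lower by a small step. The difference was -0.30 ± 0.11 and was not called (adjusted p = 0.266).

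The genes whose pattern was most like that of the 4 genes were found by Pearson correlation over the 10 arrays after the mean of each tissue was subtracted, among 882 other genes with an SD of at least 0.5 (883 for nvd). These correlations are a description over arrays that share groups, and carry no p-value. For spok they were Hey (0.98), tap (0.93) and fd59A (0.92), for GstE14 Hey (0.92), tap (0.92) and erm (0.88), and for nvd spok (0.93), Fatp2 (0.90) and Hey (0.90). For sad they were lower, with CG13064 (0.78), Culd (0.73) and PolD3 (0.72).

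Hey, a gene for a basic helix-loop-helix factor, read 6.10 and 6.21 in control disc cells and 8.42 and 8.06 in mutant ones. tap, also for such a factor, went from 6.58 and 6.40 in controls to 8.58 and 7.86 in mutants. Both genes were picked for their likeness to spok in these arrays, so their like separation of the groups follows from that choice. Since tap, erm and Hey are known from neural progenitors and young neurons, a list of 12 neural genes was added after these values were seen. It holds 4 genes chosen for their likeness to spok or GstE14 in these arrays, which are left out of its counts. Of the other 8 genes 5 had a positive difference in mutant discs, as had 64.8% of all probe sets, with a median of 0.17 and a range from -0.59 for pros to 0.63 for nerfin-1. These 8 summed to 5460 to 5594 in control disc arrays and 6398 to 6569 in mutant ones. Among them, the neuroblast genes mira (-0.20) and insc (-0.26) had negative differences, and ase (0.50), dpn (0.31), klu (0.19) and wor (0.15) positive ones. Whether cells other than disc epithelium had a part in the higher spok and GstE14 levels was not tested.

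**Figure D3:**
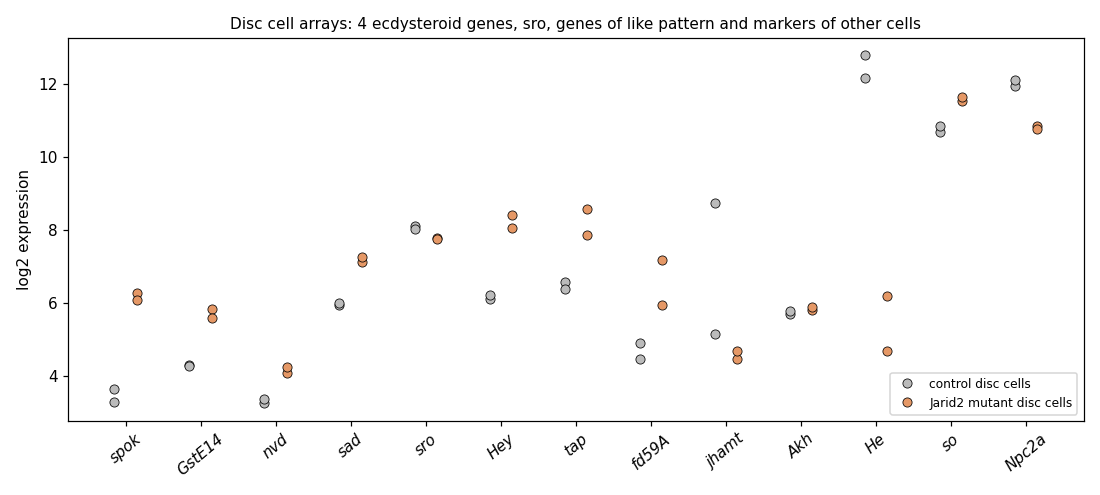
Log2 expression in the 2 control and 2 Jarid2 mutant disc cell arrays for the 4 called genes, sro, genes of like pattern, and markers of corpora allata (jhamt), corpora cardiaca (Akh), haemocytes (He) and eye disc (so), with Npc2a. spok, Hey and tap are higher in both mutant arrays, He and Npc2a are lower, and jhamt is high in 1 control array (8.74).

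In whole larvae of the Jarid2 line 1 of the 10 genes was called, sad, which fell, where 1.07% of all probe sets were called lower and 2.40% in either direction. It read 9.88 and 9.26 in control larvae and 8.58 and 8.30 in mutant larvae. The groups did not overlap, and the nearest arrays were 0.68 apart. The difference was -1.13 ± 0.20, a 2.19-fold fall (adjusted p = 0.0290). It lost its call when only larval arrays were fitted (adjusted p = 0.149) or with the replicate number as a block (0.0517). Leaving out the first or the second mutant larval array also ended the call (-1.27, adjusted p = 0.100, and -0.99, adjusted p = 0.186), as did leaving out any 1 disc array, which enters only the spread (0.0653 or 0.0664). It held when 1 control larval array was left out.

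Markers of the midgut moved in the same larvae. Of 8 measured markers, genes for digestive enzymes and a lysozyme, 4 rose and 0 fell in Jarid2 mutants, where 1.34% of all probe sets were called higher. They were LysX (3.67), Amyrel (3.03), Jon25Bi (1.87) and Jon74E (1.78). When only larval arrays were fitted, LysX (adjusted p = 0.0607) and Jon25Bi (0.0571) lost their calls. In a fit of the compared groups alone Jon74E (0.0678) did too, with LysX at 0.134 and Jon25Bi at 0.0519. In the larvae labelled E(z) RNAi 3 of the 8 rose, where 2.63% of all probe sets were called higher, and Mal-A1 fell (-1.22). With the compared groups alone the 3 rises lost their calls (adjusted p = 0.139 to 0.221), as did Mal-A1 (0.204). The Mal-A1 call was also lost when only larval arrays were fitted (0.107). Leaving out the second control larval array, either array of that label or 1 mutant disc array ended it too. Without the first Jarid2 mutant array LysX and Jon25Bi missed the threshold (adjusted p = 0.0627 and 0.0625), as LysX did without the second (0.0757). The summed linear level of the 8 was 46324 to 51431 in control larvae, 67635 to 73168 in Jarid2 mutants and 67335 to 70422 in those labelled E(z) RNAi, and 0 of the 8 lay below the lower quartile in any larval array. Of 12 haemocyte markers only 1 was called in each comparison, where 2.40% and 4.10% of all probe sets were. It was the phagocytosis receptor gene NimC1, lower in both (-1.52 and -1.46). Of 6 muscle markers 0 were called in either, with 0 and 5 at an unadjusted p under 0.05, and of 6 fat body markers 0, with 1 and 0. The part of these cells in the lower sad level was not tested.

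The other 9 genes lay close to control in Jarid2 mutant larvae. With shd given by its brighter probe set, their differences ran from -0.03 to 0.11, and their 95% intervals together spanned -0.51 to 0.55. The dimmer shd probe set was higher by 0.24 ± 0.13 (adjusted p = 0.559), without overlap. spok read 8.66 and 8.08 in control larvae and 8.38 and 8.30 in mutants, the mutants between the controls. GstE14 read 6.42 and 6.13 in controls against 6.60 and 6.11 in mutants, with more spread inside each group than between them. Only shd, at 10.81 and 10.87 against 11.00 and 10.89, also kept its groups apart, an order shown by 35.9% of all probe sets in one direction or the other.

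The response of 3 of the genes to Jarid2 mutation differed between discs and larvae by the test of that difference, where 2.89% of all probe sets were called and 0.789% were called higher in discs. It was 2.74 ± 0.29 for spok (adjusted p = 0.00230), or at least 2.00 with the dim control discs set at their lower quartile, 2.34 ± 0.28 for sad (adjusted p = 0.00402) and 1.34 ± 0.26 for GstE14 (adjusted p = 0.0358). For sad the signs were opposite, lower in mutant larvae and higher in mutant discs. For nvd the difference of 0.79 ± 0.18 did not pass (adjusted p = 0.0698). The GstE14 call was lost in the planned fit of the compared groups alone, which leaves out the 2 arrays labelled E(z) RNAi (adjusted p = 0.0560). It was also lost without the first control larval array (1.20), the second mutant larval array (1.10) or 1 array labelled E(z) RNAi. The same held without any 1 of the 4 disc arrays (1.22 to 1.46).

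In the larvae labelled E(z) RNAi 0 of the 10 genes were called by limma, where 4.10% of all probe sets were, and 4 had an unadjusted p under 0.05, as had 21.2% of all probe sets. Those 4 were sad, nvd, dib and spok. The groups did not overlap for 7 of the 10, an order that 46.6% of all probe sets showed. These arrays were set against the same control larvae as the Jarid2 mutants, so the comparisons are not independent.

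For sad the arrays labelled E(z) RNAi read 8.73 and 8.86, below both controls and above both Jarid2 mutants. The difference from control was -0.78 ± 0.20 (adjusted p = 0.0744), and it passed without the second control larval array (-1.09, adjusted p = 0.0246). spok read 8.80 and 8.99 there, a difference of 0.53 ± 0.21 (adjusted p = 0.201), above both controls. dib read 7.04 and 7.10 against 6.81 and 6.71 in controls, a difference of 0.31 ± 0.12 (adjusted p = 0.192). nvd read 5.83 and 5.85 against 5.47 and 5.51, a difference of 0.35 ± 0.13 (adjusted p = 0.170).

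The other genes in these larvae had adjusted p-values of at least 0.303. Cyp6t3 stood higher than its controls without overlap, at 5.74 and 6.07 against 5.64 and 5.51, and GstE14 lower, at 5.92 and 6.03 against 6.42 and 6.13. spo lay below the lower quartile in all 6 larval arrays, between 3.63 and 3.99. The direct comparison of Jarid2 mutant larvae with the larvae labelled E(z) RNAi called 0 of the 10 genes by limma, where 6.11% of all probe sets were called. By their brightest probe set 3 of the 10 had an unadjusted p under 0.05, against 21.4% of all probe sets. The dimmer shd probe set differed by 0.47 ± 0.13 in that comparison (unadjusted p = 0.00621, adjusted p = 0.0745 by limma). From controls it differed by -0.23 ± 0.13 in the larvae labelled E(z) RNAi (adjusted p = 0.340).

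Further genes of sterol supply and steroid synthesis were read from a list of 13, which includes sro, the ferredoxin gene Fdx1, the sterol carrier gene Start1, the Npc2 family, the nuclear receptor gene Hr96 and the lipase gene mag. In discs 1 fell and 0 rose, where 2.09% of all probe sets were called lower. It was Npc2a, for a soluble partner of Npc1a in sterol transport, which read 11.95 and 12.13 in control disc cells and 10.85 and 10.77 in mutant ones. The mutants were lower by 1.22 log2 units without overlap (-1.22 ± 0.13, adjusted p = 0.00203), and the call held in each of 23 alternatives. In both larval comparisons 0 of the 13 were called, while 4 had an unadjusted p under 0.05 in each, where 11.6% of all probe sets did for Jarid2 and 21.2% for the E(z) RNAi label.

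Regulators of the gland were read from a list of 21 genes, among them the prothoracicotropic hormone gene Ptth, its receptor gene tor, the zinc finger gene mld that acts on nvd and spok, ecd and dre4. None was called in any of the 3 comparisons, with 0, 3 and 5 at an unadjusted p under 0.05 for larval Jarid2, labelled E(z) RNAi and disc Jarid2, where the shares of all probe sets were 11.6%, 21.2% and 13.8%. In discs mld was at 10.68 and 10.61 in controls and at 10.57 and 10.27 in mutants, with an interval of the difference from -0.67 to 0.22. tor was dim, below the lower quartile in all 4 disc arrays. Of 5 genes of ecdysteroid turnover and transport, which include the inactivating P450 gene Cyp18a1 and the importer gene Oatp74D, 0 were called in any comparison, with 0, 2 and 0 at an unadjusted p under 0.05.

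Genes known to respond to 20-hydroxyecdysone were read from a list of 20. In both larval comparisons 0 of the 20 were called, with 1 at an unadjusted p under 0.05 in each, and medians of 0.06 and 0.02 against 0.01 and 0.06 over all probe sets. In mutant discs 2 fell and 0 rose, where 2.09% of all probe sets fell, with a median of -0.12 against 0.06 over all probe sets. The clock factor gene vri fell by 0.78 on the log2 scale (± 0.11, adjusted p = 0.0104), but not past the test without the second control disc array (adjusted p = 0.110) or the first mutant one (0.0803), nor after median centring (0.0501). The sulphur amino acid enzyme gene Cth fell by 0.59 (± 0.11, adjusted p = 0.0333), a call lost without any 1 disc array (0.106 to 0.274) and without 1 or both arrays labelled E(z) RNAi (0.0535), and kept in 11 of 23 alternatives. The receptor gene EcR was at 8.81 and 8.97 in controls and at 8.23 and 7.95 in mutants, a difference of -0.80 ± 0.25 (adjusted p = 0.199).

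The hormone response also differed between the 2 arrays of 1 group. In control larvae the nuclear receptor gene Eip78C read 11.85 and 9.05, and Hr4 read 8.09 and 6.03. In Jarid2 mutant larvae the order was the other way round, with Eip78C at 10.69 and 11.55. Over the 20 response genes the median absolute gap between the 2 arrays was 0.53 in control larvae, 0.31 in Jarid2 mutant larvae and 0.27 in those labelled E(z) RNAi, against 0.19, 0.16 and 0.18 over all probe sets. For the 10 synthesis genes it was 0.25, 0.23 and 0.12. In discs the gap of the response genes was 0.17 in controls and 0.32 in mutants, against 0.10 and 0.12 over all probe sets, and that of the synthesis genes 0.18 in both. The first array was higher for 17 of the 20 response genes in control larvae, for 4 in Jarid2 mutants and for 15 in those labelled E(z) RNAi, and for 14 in control and 16 in mutant discs. The first control larval array also read higher for sad (by 0.62) and spok (by 0.58). Over all 18769 probe sets the first array was higher for 11296 in control larvae, 10723 in Jarid2 mutants and 7281 in those labelled E(z) RNAi. Among the 10 synthesis genes it was higher for 8, 7 and 2. In the other larval groups sad and spok had the sign opposite to most response genes, which was that of most probe sets. The first array minus the second was 0.28 for sad and 0.07 for spok in Jarid2 mutants. In those labelled E(z) RNAi it was -0.12 and -0.20. Without the first control larval array the difference of sad between Jarid2 mutant and control larvae was -0.82, against -1.44 without the second.

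**Figure D4:**
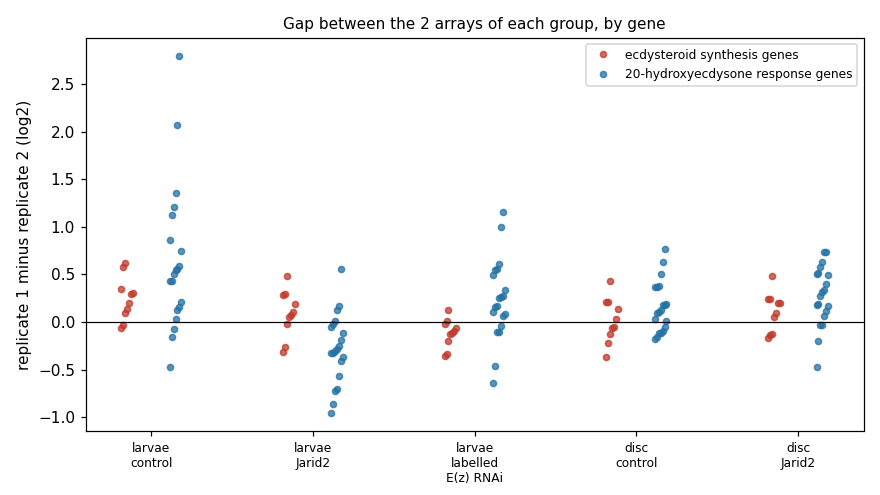
Difference between the first and the second array of each group on the log2 scale, for the 10 ecdysteroid synthesis genes (red) and 20 genes known to respond to 20-hydroxyecdysone (blue), with 1 point per gene. The response genes spread more widely than the synthesis genes in larvae, up to 2.80 for Eip78C in the controls.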

How the data were processed

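The authors deposited 1 log2 expression value per probe set and array, as the range of the values shows. The submitters' processing notes name limma 3.4.3, while the sources used here do not give background correction, normalization or probe summary. Per the labels, 200.0 ng of total RNA went into each labelling. Of 18952 probe sets 183 controls were left out. Of the other 18769, the platform annotation assigned 13647 to 1 gene, which named 11982 genes, while 402 had several and 4720 none and stayed unnamed. Each gene was represented by its probe set with the highest mean. Group means of all 10 arrays were fitted in limma 3.58.1 (lmFit, eBayes; R 4.3.3) with no covariate (5 residual and 2.78 prior degrees of freedom), two-sided, with Benjamini-Hochberg adjustment over all 18769. The fit was tested on simulated data.

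All 10 genes were named, together with listed pathway genes that were called (up to 4 per list and comparison) and the 3 genes of most like pattern for each called gene. The members and lists were chosen with earlier results of these data known. Other genes of the lists (sro, mld, jhamt, Akh, EcR and the like) were named after their values were seen. Alternatives were other normalizations, a filter on dim probe sets, fits of fewer arrays, other priors, array weights, a replicate block, averaging the probe sets of a gene, a minimum of 2-fold and omission of each array. The number of arrays limits the precision. No sequences or coordinates were used. Figures were drawn with matplotlib 3.10.9.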

Additional observations from a re-analysis of the deposited data

Results flagged for a closer look

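The effect of Jarid2 mutation differed between disc cells and larvae, by the test of that difference in the limma fit, for 3 of the 10 genes, with log2 differences of 2.74 for spok, 2.34 for sad and 1.34 for GstE14, the disc effect minus the larval effect. For spok, whose control disc arrays were dim, the difference is at least 2.00 with those arrays set at their lower quartile. The GstE14 call was kept in 12 of 22 alternatives.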

How the results depend on the processing

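Of the 10 genes 1 was called in Jarid2 mutant larvae, but 0 when only larval arrays were fitted, 0 in a fit of the compared groups alone and 0 with the replicate number as a block, and between 0 and 1 when arrays were left out in turn. In the larvae labelled E(z) RNAi the count was 0, and between 0 and 1 with arrays left out. In discs it was 4, and between 2 and 4 with arrays left out. The disc count was 3 after quantile normalization of all arrays, 3 without dim probe sets and 3 at 2-fold. spok kept its call in discs in all 23 alternatives, between 2.52 and 3.50. The discs against larvae count of 3 lay between 2 and 4. The direct larval count was 0 throughout its 22 alternatives.

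Calls among all probe sets moved more. For larval Jarid2 the count of 451 was 154 in the larval fit, 112 with the compared groups alone, 288 with array weights, 286 at 2-fold and between 166 and 446 with arrays left out. For labelled E(z) RNAi the count of 769 was 432 after quantile normalization of all arrays, 493 after median centring, 409 without dim probe sets, 169 in the larval fit, 2 with the compared groups alone, 199 with array weights, 413 with the probe sets of each gene averaged, 293 at 2-fold, 509 with the replicate block and between 273 and 641 with arrays left out. For discs the count of 490 was 1332 with array weights and between 244 and 519 with arrays left out, and for discs against larvae 542 became 293 to 533. The direct count of 1146 was 645, 746, 628, 252, 185, 757, 627 and 399 under the same settings as for E(z) in that order (without the block), and between 294 and 1280 with arrays left out.

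The replicate numbers share no stated source. Deviations of arrays of the same number correlated at r = -0.42 for the larval Jarid2 pair of groups, -0.21 for the E(z) pair and 0.09 in discs, so they were not taken as pairs. The replicate block ended the call of sad in larvae and of Cth in discs (adjusted p = 0.0708) and, against controls, no other call of the 10 genes, Npc2a, vri, so, ato, Jarid2, E(z) or the called midgut markers. With the numbers of the larval controls exchanged, chosen after seeing the data, 1 and 0 of the 10 genes were called, and 393 and 609 probe sets.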

Other observations

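Npc2c, a gene of the family of soluble sterol carriers, read 9.95 and 10.21 in control larvae, 8.78 and 8.13 in Jarid2 mutants, and 10.04 and 11.11 in those labelled E(z) RNAi. It was lower in Jarid2 mutants than in the latter (-2.12 ± 0.35, adjusted p = 0.0148 by limma), a call lost without the second Jarid2 mutant larval array (-1.79, adjusted p = 0.0831). The difference of -1.62 from controls did not pass the test (adjusted p = 0.0635), but passed without 1 or both arrays labelled E(z) RNAi (adjusted p = 0.0172). Npc2b read 11.12 and 11.08 in controls, 10.63 and 10.35 in Jarid2 mutants and 10.26 and 10.74 in those labelled E(z) RNAi, below the controls in all 4 arrays but with adjusted p = 0.177 and 0.107.

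Among the genes of like pattern to sad, PolD3 read 8.91 and 7.75 in control larvae, 5.82 and 5.88 in Jarid2 mutants and 5.73 and 6.18 in those labelled E(z) RNAi, and Culd read 8.40 and 8.28, 6.87 and 6.96, and 6.71 and 6.95 in the same groups. In discs PolD3 lay between 5.11 and 5.40 in all 4 arrays, and Culd between 7.92 and 8.41.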
